A study of Mus musculus with 8 samples.

Results

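The MYC, MAX and MXD network is a set of transcription factors that share a DNA binding and dimerization fold. Its 10 members examined here are Myc, Mycn, Mycl, Max, Mxd1, Mxd3, Mxd4, Mxi1, Mnt and Mlx, and they were taken by symbol from count tables that hold 23420 genes. All 10 were present, Mycl under its older symbol Mycl1, and all 10 were among the 14598 genes with enough reads to be tested between genotypes. The members were chosen with their values in both genotypes known, above all Mycn against Myc. Their genotype differences are therefore given as a description, with standard errors and without a test.

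RNA was taken from mouse uterine stromal cells labelled day 3, in 4 libraries of genotype Erbb3f/f and 4 of genotype Erbb3d/d. In common mouse notation f marks a loxP-flanked allele and d the same allele once Cre has removed what the sites enclose. The labels name no Cre driver, give no age or strain, do not say from what event day 3 is counted, and do not say whether a library is 1 animal or a pool. Nothing in them says that replicates are separate animals, so the spread between libraries may be partly technical. Erbb3 encodes the receptor ERBB3, and the study's title links stromal Erbb3 to the shaping of uterine glands.

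MYC proteins bind DNA as pairs with MAX, at a short sequence called the E-box, and recruit co-activators that raise transcription of genes for ribosome assembly, nucleotide and polyamine synthesis and cell division. MXD proteins, MXI1 and MNT also pair with MAX at E-boxes, but recruit the SIN3 and HDAC co-repressors. MLX pairs with some of the repressors and with the glucose-sensing MONDO proteins in a parallel branch. In the uterus Myc is known as a gene that oestrogen induces quickly.

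Depth ranged from 8578575 to 12854367 reads in genes per library. Levels are given as CPM, the reads of a gene scaled to a common library size. Erbb3 itself stood at 9.63 ± 2.24 CPM with the f/f label and at 13.9 ± 4.55 CPM with the d/d label (SD over 4 libraries each; edgeR, adjusted p = 0.484), so the targeted gene was not lower under the deletion label. By replicate, Erbb3 had 7.40, 10.6, 8.24 and 12.3 CPM in Erbb3f/f, against 7.36, 14.3, 17.6 and 16.2 CPM under the d/d label. The part of other cell types in these values was not tested. A count over the whole gene cannot show the loss of single exons. Groups are therefore called by their label. The 14 stromal markers, among them Pdgfra, Dcn and Hoxa10, summed to 14072 to 17560.0 CPM in Erbb3f/f and 12012 to 16192 CPM in Erbb3d/d. None was at 0, and 9 of the 14 were lower in Erbb3d/d, 5 of them with an unadjusted p under 0.05. Of all genes tested, 4.97% were lower with such a p. Over all genes edgeR's quasi-likelihood test called 0% at an adjusted p under 0.05, DESeq2 called 261 genes, and 1695 genes had an unadjusted p under 0.05 in edgeR.

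Myc, the member with the highest level, was lower in the libraries labelled Erbb3d/d. Its normalised read count was 326, 345, 209.5 and 289 CPM in Erbb3f/f replicates 1 to 4, from 3355, 3300, 2670 and 2556 reads. The libraries labelled Erbb3d/d held 200.3, 228, 144 and 105 CPM in the same order, from 2040, 1960, 1827 and 1201 reads. The genotypes overlapped in 1 place only, where Erbb3f/f replicate 3 lay below Erbb3d/d replicate 2. The means were 292 ± 60.1 CPM and 169 ± 55.4 CPM (f/f and d/d label, SD over 4 libraries each), and the fitted log2 fold change was -0.79 (SE 0.24). In bulk RNA, fewer cells of a type and less RNA per cell cannot be told apart. Myc lies on chromosome 15 at 61985391 to 61990374 on the plus strand (GRCm38, GENCODE vM21).

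Mycn, a paralogue best known from embryonic progenitor cells and neuroblastoma, stood the other way. Erbb3f/f replicates 1 to 4 gave 46, 50, 78 and 91 reads, which is 4.48, 5.23, 6.12 and 10.3 CPM. The libraries labelled Erbb3d/d held 236, 121, 736 and 725 reads, or 23.2, 14.1, 57.9 and 63.5 CPM. Every library labelled Erbb3d/d lay above every library labelled Erbb3f/f, and Erbb3d/d replicates 3 and 4 lay far above replicates 1 and 2. The means were 6.53 ± 2.59 CPM and 39.7 ± 24.7 CPM (SD, n = 4 each), a 6.08-fold ratio of means and a log2 fold change of 2.62 (SE 0.51). Mycn was the only 1 of the 10 members whose genotypes did not overlap. Over all genes tested, the Erbb3d/d values lay wholly above in 2.57% and wholly below in 2.48%, and since the members were chosen on this contrast nothing is read from that comparison.

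Mycn is read from the minus strand of chromosome 12, at 12936093 to 12941914, and no other annotated gene shares its exons. The stretch just before its annotated start is shown because Mycn is the member with the largest difference. It was taken from the RefSeq promoter table (GRCm38.p6), runs from chr12:12941915-12942086 on the minus strand, and is written 5′ to 3′ with a match to the E2F-type sequence TTTCGCGC, here on the opposite strand, in capitals.
Mycn: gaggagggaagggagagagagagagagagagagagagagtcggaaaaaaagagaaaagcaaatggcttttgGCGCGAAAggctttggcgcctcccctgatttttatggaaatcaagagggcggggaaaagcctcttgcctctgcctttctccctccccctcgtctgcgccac
E2F proteins are cell cycle transcription factors. The match begins 179 bases before the RefSeq start, and 0.323% of the 32851 promoter windows in the table, each 300 bases long, hold this sequence on either strand. A match is a description of the letters and does not show binding.

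Mycl, the remaining MYC paralogue, differed less than Mycn. Its level was 17.6, 27.8, 22.8 and 33.1 CPM in Erbb3f/f replicates 1 to 4, against 22.0, 26.7, 41.2 and 40.5 CPM under the d/d label. The genotypes overlapped, but Erbb3d/d replicates 3 and 4, the libraries with the most Mycn, again held the 2 highest values. The log2 fold change was 0.37 (SE 0.25).

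**Figure D1:**
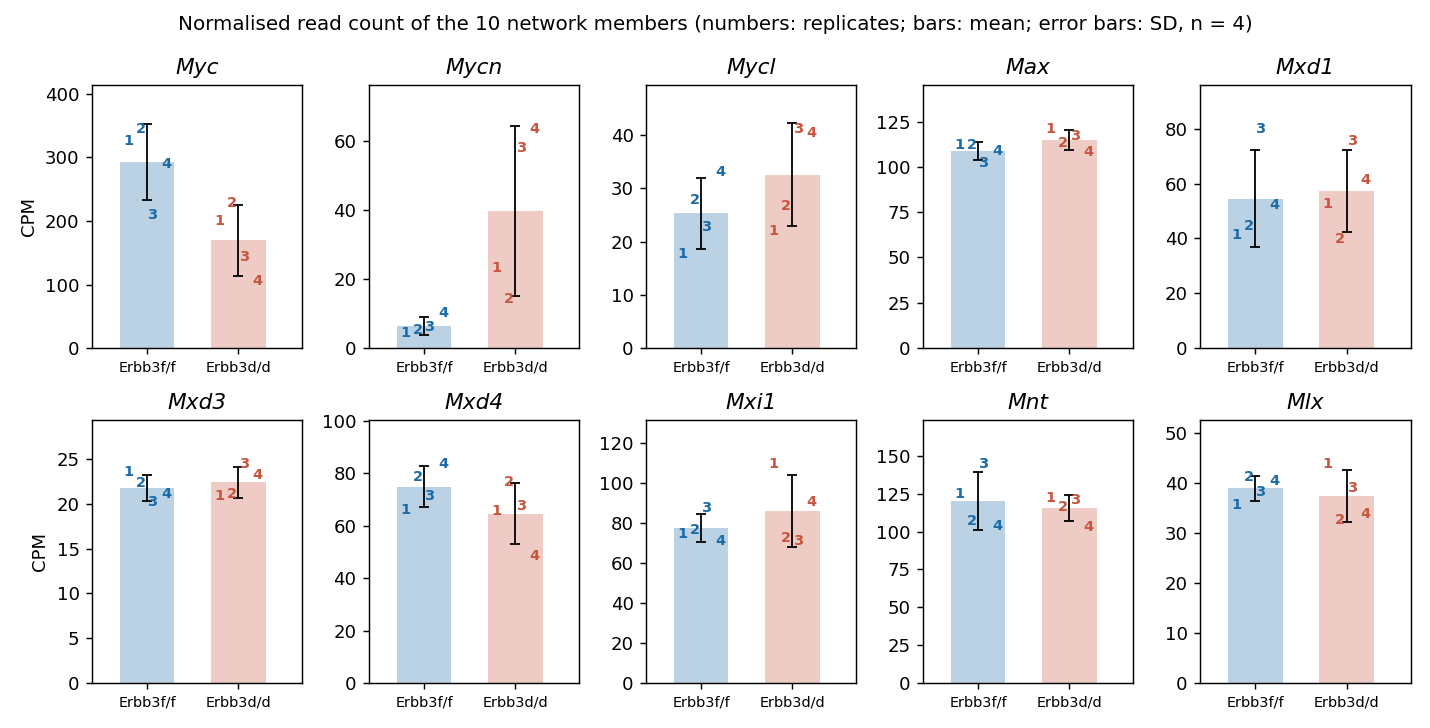
Normalised read count (CPM, y axis from 0) of each of the 10 members under both labels; numbers mark replicates, bars the mean and error bars the SD (n = 4). Mycn is separated between the labels, Myc overlaps at 1 place, and the other 8 members overlap, Max only through Erbb3d/d replicate 4.

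Setting Mycn against Myc within each library removes the scaling between libraries. In Erbb3f/f replicates 1 to 4 there were 72.9, 66.0, 34.2 and 28.1 Myc reads for each Mycn read. Under the d/d label there were 8.64, 16.2, 2.48 and 1.66. The log2 ratio of Mycn over Myc averaged -5.54 ± 0.683 under the f/f label and -2.29 ± 1.53 under the d/d label (SD over 4 libraries each), without overlap and with a difference of 3.24. Leaving out 1 library at a time kept this difference between 2.72 and 3.82.

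**Figure D2:**
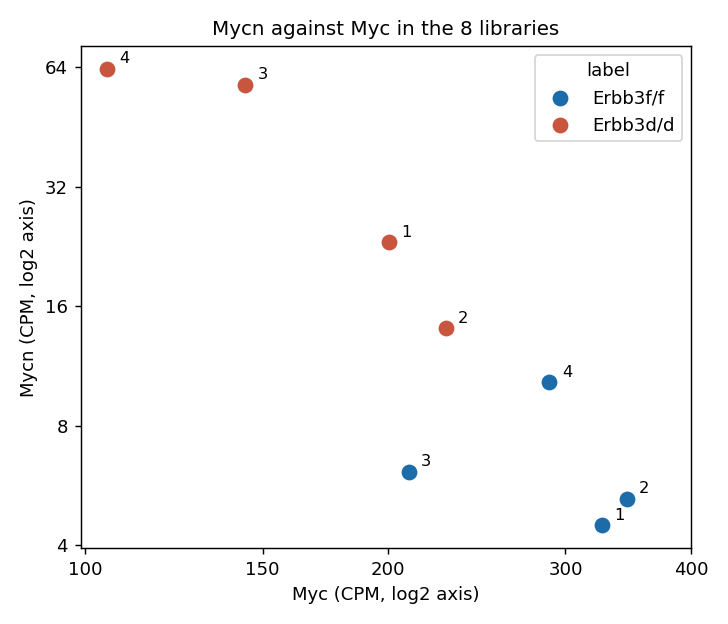
Mycn against Myc in the 8 libraries (CPM, both axes log2; numbers mark replicates). Erbb3d/d replicates 4 and 3 have the least Myc, at 105 and 144 CPM, and the most Mycn, at 63.5 and 57.9 CPM.

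To compare levels between genes, CPM was divided by exon length in kb (CPM per kb). In the libraries labelled Erbb3f/f the order from high to low was Myc at 108 ± 22.1 CPM per kb (SD, n = 4), Max, Mnt, Mlx, Mxi1, Mxd3, Mxd4, Mxd1, Mycl and, last, Mycn at 1.98 ± 0.786. Library ranges of neighbours overlapped for Max and Mnt, Mxd3 and Mxd4, Mxd4 and Mxd1, and Mxd1 and Mycl, so these pairs have no clear order. In the libraries labelled Erbb3d/d Myc still led, at 62.4 ± 20.4 CPM per kb, and Max, Mnt and Mlx followed in the same order. Mycn had moved from place 10 to place 6 at 12.0 ± 7.49 CPM per kb, and its wide range, 4.28 to 19.3, took in those of Mxd3, Mxd1, Mycl, Mxd4 and Mxi1. The place of Mxd4 depended on the length used: by longest transcript it stood at place 5 in Erbb3f/f and place 7 in Erbb3d/d.

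Per length, Mycn made up 1.08%, 1.17%, 2.20% and 2.65% of the summed level of the 3 MYC paralogues in Erbb3f/f replicates 1 to 4. Under the d/d label its share was 8.16%, 4.51%, 21.8% and 28.3%. Mycl made up 3.47% to 6.97% of that sum in Erbb3f/f and 6.32% to 14.7% in Erbb3d/d. Myc nonetheless remained the major paralogue in every library, with 56.9% in Erbb3d/d replicate 4 as its smallest share. The summed level of the 3 paralogues was 126, 136, 84.6 and 118 CPM per kb in Erbb3f/f replicates 1 to 4, against 86.2, 94.9, 80.7 and 68.1 CPM per kb under the d/d label. The amount by which Mycn and Mycl were higher was thus smaller than the amount by which Myc was lower, and the sums overlapped only through Erbb3f/f replicate 3.

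**Figure D3:**
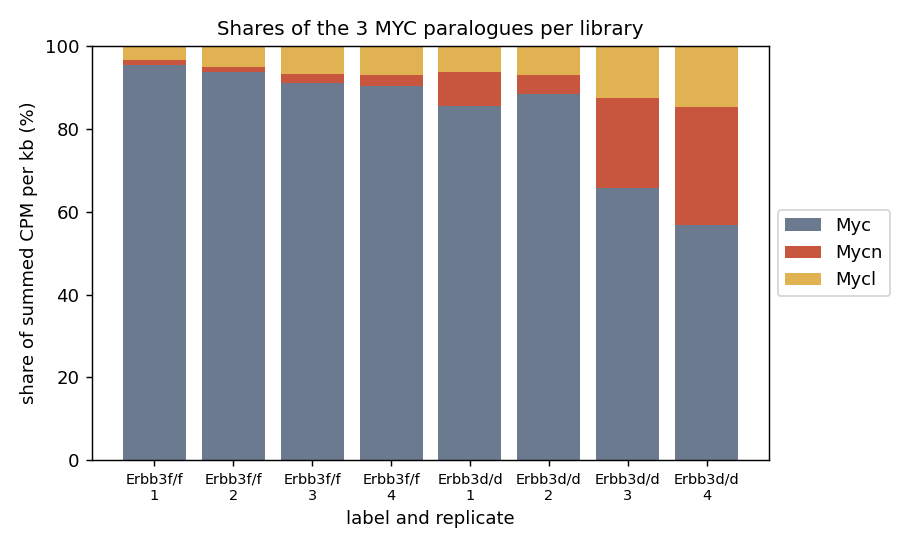
Share of Myc, Mycn and Mycl in their summed CPM per kb (y axis, percent) in each of the 8 libraries. Mycn takes 2.65% or less in the libraries labelled Erbb3f/f and 21.8% and 28.3% in Erbb3d/d replicates 3 and 4.

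Max, the shared partner of the MYC and MXD proteins, was the steadiest member. It had 112, 112, 102 and 109 CPM in Erbb3f/f replicates 1 to 4, against 121, 113, 117 and 108 CPM under the d/d label. The ranges overlapped only through Erbb3d/d replicate 4, and the log2 fold change was 0.08 (SE 0.08).

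Among the partners of MAX that repress, Mnt, the broadly expressed one, had 125, 107, 145 and 104 CPM in Erbb3f/f and 122, 116, 121 and 103 CPM in Erbb3d/d replicates 1 to 4, a log2 fold change of -0.06 (SE 0.12). Mxd4 had 66.0, 78.8, 71.5 and 83.8 CPM in Erbb3f/f and 65.5, 76.7, 67.7 and 48.6 CPM in Erbb3d/d, where replicate 4 alone lay below all other libraries (log2 fold change -0.22, SE 0.14). Mxi1 ranged from 70.8 to 87.4 CPM in Erbb3f/f and from 70.8 to 109.7 CPM in Erbb3d/d, with replicate 1 the highest (log2 fold change 0.15, SE 0.14). These ranges overlapped for all 3 genes. Single libraries decided these small differences: the log2 fold change was 0.05 for Mnt without Erbb3f/f replicate 3, 0.01 for Mxi1 without Erbb3d/d replicate 1 and -0.10 for Mxd4 without Erbb3d/d replicate 4.

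Mxd1, which rises in many cells as they leave the cycle, varied most for its level among the repressors, and it did so within each genotype. It had 41.2, 44.5, 80.0 and 52.3 CPM in Erbb3f/f replicates 1 to 4, against 52.6, 39.9, 75.6 and 61.2 CPM under the d/d label, a log2 fold change of 0.07 (SE 0.24). Its sign turned, to -0.08 without Erbb3d/d replicate 3 and to -0.03 without Erbb3f/f replicate 1. Mxd3, which is tied to S phase, ranged only from 20.2 to 24.5 CPM over the 8 libraries (log2 fold change 0.04, SE 0.12). Summed per length, the 5 repressors held 63.0 ± 6.36 CPM per kb under the f/f label and 62.8 ± 3.81 under the d/d label (SD over 4 libraries each). The ratio of the 3 MYC paralogues to these 5 repressors was 2.05, 2.28, 1.17 and 1.99 in Erbb3f/f replicates 1 to 4, against 1.30, 1.60, 1.23 and 1.14 under the d/d label, so Erbb3f/f replicate 3 fell among the libraries of the other label.

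Mlx, the centre of the parallel branch, had 35.6 to 41.2 CPM in Erbb3f/f and 32.6 to 43.8 CPM in Erbb3d/d (log2 fold change -0.06, SE 0.12). Of the network proteins that are not members, Mlxip, a MONDO partner of MLX, had 263 ± 14.2 and 264 ± 21.9 CPM (SD, n = 4 each). Mlxipl, the partner that acts in glucose-responsive tissues such as liver, had 2.26 ± 0.802 and 2.27 ± 0.507 CPM. Mga, a large MAX partner that represses germline genes, had 286 ± 29.8 and 239 ± 31.9 CPM (f/f and d/d label, SD over 4 libraries each), with a log2 fold change of -0.26 (SE 0.11; edgeR, adjusted p = 0.414). The other members lie on chromosome 4 at 122995652 to 123002485 (Mycl), chromosome 12 at 76937269 to 76962201 (Max), chromosome 6 at 86647042 to 86669161 (Mxd1), chromosome 13 at 55325168 to 55329823 (Mxd3), chromosome 5 at 34173883 to 34187720 (Mxd4) and chromosome 19 at 53310518 to 53375810 (Mxi1), with Mnt at 74830920 to 74845725 and Mlx at 101087277 to 101092207 on chromosome 11. Exons of Mxd3 overlap those of Prelid1 on the other strand, exons of Mlx those of Psmc3ip, exons of Mxd4 those of Gm42846 by 514 bases and exons of Mxi1 those of Gm10197 by 194 bases. The libraries were not directional, so reads from such overlaps cannot be told apart.

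The E-box CACGTG, which both MYC with MAX and the repressors with MAX bind, was searched in the promoter windows of the members, because MYC and its partners are known to act on their own network. RefSeq windows existed for 9 of the 10 members, 11 windows in all. They held 55.0% to 76.7% G and C, against a median of 52.7% over all windows, and the part of this in the matches was not tested. The E-box was found in those of Max, Mlx, Mnt and Mxd4, against 7.15% of all windows, and was not found in those of Mycn, Mycl, Mxd1, Mxd3 or Mxi1. The Mnt and Mlx windows are shown as examples, both on the plus strand of GRCm38.p6 chromosome 11, ending before the start in GENCODE vM21, with the E-box in capitals. Mnt spans chr11:74830674-74830919 with its E-box 123 bases before the RefSeq start, and Mlx spans chr11:101087040-101087276 with its E-box 40 bases before.
Mnt: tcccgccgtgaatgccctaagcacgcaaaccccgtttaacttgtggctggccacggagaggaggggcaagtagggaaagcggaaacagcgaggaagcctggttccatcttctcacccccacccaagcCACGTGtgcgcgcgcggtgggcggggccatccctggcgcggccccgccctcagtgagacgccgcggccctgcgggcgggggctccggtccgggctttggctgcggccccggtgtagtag
Mlx: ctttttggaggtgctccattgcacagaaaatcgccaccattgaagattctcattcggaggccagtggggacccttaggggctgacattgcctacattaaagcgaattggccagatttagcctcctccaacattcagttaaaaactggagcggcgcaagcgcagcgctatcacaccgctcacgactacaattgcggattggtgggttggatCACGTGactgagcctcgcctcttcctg
The 4 members with an E-box in the window had log2 fold changes of 0.08, -0.06, -0.06 and -0.22 for Max, Mlx, Mnt and Mxd4. A second E2F-type sequence, TTTCCCGC, occurs in 1.07% of all windows and in none of the members' windows.

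The genes around the network were then examined in lists that do not include the members. None of their genes was called by edgeR's quasi-likelihood test after adjustment over all genes, and DESeq2 called 2 of the 138 tested, Cdkn1a and Gadd45a. DESeq2 called 1.82% of all genes, so that count is near its background. Both calls fell in 1 list, the 12 MYC-repressed genes. Over all genes tested, 6.64% had an unadjusted p under 0.05 and were higher under the d/d label, 4.97% had one and were lower, and the median log2 fold change was -0.01. The lists were written with earlier results of these data known. Genes of a list can also move together: in Erbb3f/f replicate 3, 31 of 35 ribosome assembly genes lay below the Erbb3f/f mean. Counts set beside the shares of all genes are therefore description only. No test of a list as a whole was made. Epithelial and smooth muscle markers, described at the end, were higher in the same libraries, and their part in the list values was not tested.

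Genes for the assembly of ribosomes, the class most closely tied to MYC, were lower almost throughout. Of 35 genes, 34 had a lower fitted level in the libraries labelled Erbb3d/d, 10 of them with an unadjusted p under 0.05 and none higher with such a p. The median log2 fold change was -0.23, and with RLE scaling 33 were lower. The exception was Bop1, an assembly factor of the large subunit, at 32.9 ± 2.75 and 34.0 ± 3.29 CPM (f/f and d/d label, SD over 4 libraries each). Ubtf, the factor that opens ribosomal DNA for transcription, and Rrn3, which brings in RNA polymerase I, were also close to level, Ubtf at 144 ± 13.1 and 144 ± 12.2 CPM and Rrn3 at 71.8 ± 6.49 and 70.4 ± 8.36 CPM.

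Ppan, a factor for large subunit maturation, had 76.1, 71.5, 70.8 and 61.7 CPM in Erbb3f/f replicates 1 to 4, against 56.0, 62.9, 48.0 and 40.9 CPM under the d/d label. The labels overlapped only where Erbb3d/d replicate 2 passed Erbb3f/f replicate 4, and the log2 fold change was -0.43 (SE 0.14; edgeR, adjusted p = 0.305). Rrp12, which helps export both subunits, had 21.6, 24.5, 21.5 and 20.0 CPM in Erbb3f/f and 19.2, 16.2, 13.5 and 13.1 CPM in Erbb3d/d, without overlap, and a log2 fold change of -0.50 (SE 0.16; edgeR, adjusted p = 0.311). Polr1a, the largest subunit of RNA polymerase I, Wdr12 and Dkc1, the pseudouridine synthase of the nucleolus, also did not overlap, which makes 4 of 35 genes wholly lower against 2.48% of all genes. These 3 were singled out after their values were seen.

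By library, the mean of the 35 genes, relative to the Erbb3f/f mean on the log2 scale, was 0.07, 0.07, -0.12 and -0.02 in Erbb3f/f replicates 1 to 4, against -0.21, -0.02, -0.31 and -0.54 under the d/d label. Erbb3d/d replicate 4, the library with the least Myc, was lowest, with 34 of 35 genes under the Erbb3f/f mean. Erbb3d/d replicate 2, the one of its label with the most Myc, lay within the range of Erbb3f/f. Replicate 4 of the d/d label also had the lowest stromal marker sum of all libraries, 12012 CPM, and the highest epithelial one, 3235 CPM. The part of cell content in this order was not tested. The count of genes lower with an unadjusted p under 0.05 moved with single libraries. It was 19 without Erbb3d/d replicate 2 (8.91% of all genes), 6 without Erbb3d/d replicate 3 (2.88%), 6 without Erbb3d/d replicate 4 (2.73%) and 4 without Erbb3f/f replicate 2 (3.07%).

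Metabolic and translation genes known as MYC targets leaned the same way. Of 29 genes tested 26 were lower, 8 with an unadjusted p under 0.05, with a median log2 fold change of -0.15. Srm, which makes the polyamine spermidine, had 117, 106, 98.3 and 113 CPM in Erbb3f/f and 80.0, 93.7, 69.4 and 41.6 CPM in Erbb3d/d replicates 1 to 4 (log2 fold change -0.61, SE 0.21; edgeR, adjusted p = 0.323). Mthfd1l, an enzyme of mitochondrial folate metabolism, had 10.2 ± 1.62 and 6.68 ± 0.828 CPM (SD, n = 4 each; log2 fold change -0.60, SE 0.20; edgeR, adjusted p = 0.319). Neither gene overlapped between the labels. In the list 4 of 29 genes were wholly lower under the d/d label, against 2.48% of all genes. Of 2 textbook MYC targets, Odc1 was close to the list median at a log2 fold change of -0.12 (SE 0.11). The other, Ldha, was near level at -0.02 (SE 0.11). Tfrc, the transferrin receptor, was on the other side with 84.5 ± 12.9 and 95.6 ± 8.11 CPM (log2 fold change 0.18, SE 0.12). The count of 8 was 3 without Erbb3d/d replicate 4 (2.73% of all genes were lower with such a p) and 4 without Erbb3f/f replicate 1 (3.41%). It was 4 without Erbb3f/f replicate 4 (4.38%) and 5 without Erbb3f/f replicate 2 (3.07%).

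**Figure D4:**
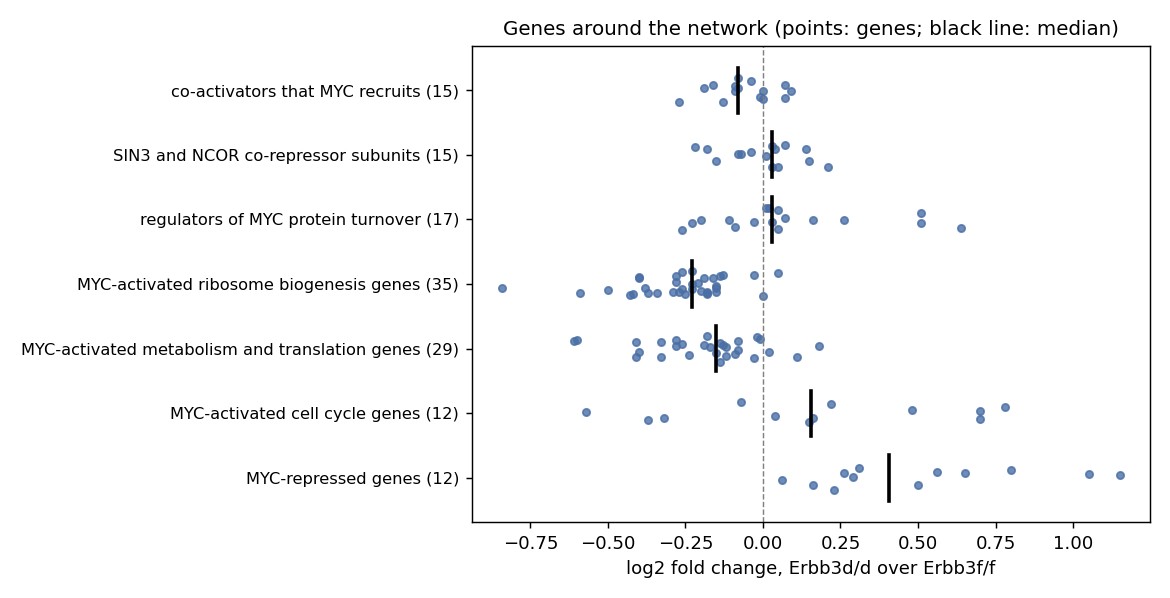
Log2 fold change (x axis, Erbb3d/d over Erbb3f/f) of each gene in 7 lists around the network; the number of genes tested stands beside the list and black lines mark medians. Ribosome biogenesis genes centre on -0.23 with 34 of 35 below 0, and the MYC-repressed genes all lie above 0 with a median of 0.41.

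Cell cycle genes counted among MYC targets were split. Of 12 genes 8 were higher and 4 lower, with a median log2 fold change of 0.16. Ccnd1, cyclin D1, had 117, 167, 78.2 and 119 CPM in Erbb3f/f and 175, 139.6, 272 and 237 CPM in Erbb3d/d replicates 1 to 4 (log2 fold change 0.78, SE 0.26; edgeR, adjusted p = 0.323). Cks2, a small CDK-binding protein, had 5.85 ± 1.18 and 9.48 ± 3.04 CPM (SD, n = 4 each). Cdca7, a known MYC target, had 91.5 ± 15.9 and 73.0 ± 9.83 CPM (f/f and d/d label; log2 fold change -0.32, SE 0.14; edgeR, adjusted p = 0.417). An unadjusted p under 0.05 was reached by 3 of the higher genes, and by Cdca7 alone of the lower ones. That count of 3 was 1 without Erbb3f/f replicate 1 (5.77% of all genes were higher with such a p). It was also 1 when replicate 3 (5.47%) or 4 (4.24%) of the d/d label was left out. The direction also moved, to 5 higher and 7 lower (median -0.02) without Erbb3d/d replicate 3 and to 6 of each without Erbb3f/f replicate 3.

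Genes that MYC is known to repress stood higher under the d/d label. All 12 had a positive log2 fold change (11 without Erbb3f/f replicate 4 or Erbb3d/d replicate 1), from 0.06 to 1.15 with a median of 0.41 (0.25 without Erbb3d/d replicate 1), and 5 had an unadjusted p under 0.05. The value of 1.15 (SE 0.63) belongs to Cdkn2b, another CDK inhibitor, which had only 7 to 98 reads per library. Cdkn1a, the CDK inhibitor p21, had 44.9, 30.6, 57.6 and 52.3 CPM in Erbb3f/f replicates 1 to 4, against 115, 49.4, 104 and 116 CPM under the d/d label. Erbb3d/d replicate 2 alone fell inside the f/f range, and the log2 fold change was 1.05 (SE 0.28; edgeR, adjusted p = 0.280). Gadd45a, a growth arrest gene, had 39.8, 26.4, 29.2 and 36.1 CPM in Erbb3f/f and 64.4, 33.3, 64.6 and 66.8 CPM in Erbb3d/d (log2 fold change 0.80, SE 0.22; edgeR, adjusted p = 0.280), and Erbb3d/d replicate 2 again alone fell inside the f/f range. DESeq2 called Cdkn1a (adjusted p = 0.0120) and Gadd45a (adjusted p = 0.0382), where 1.82% of all genes were called. Without Erbb3d/d replicate 2, edgeR called Cdkn1a and Gadd45a (adjusted p = 0.0143 for both) and Ndrg2 (adjusted p = 0.0415), where 1.75% of all genes were called. With the replicate number as a block edgeR called Cdkn1a (adjusted p = 0.0355), where 0.356% of all genes were called. The count of 5 with an unadjusted p under 0.05 was 3 without Erbb3d/d replicate 1, where 6.61% of all genes were higher with such a p.

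**Figure D5:**
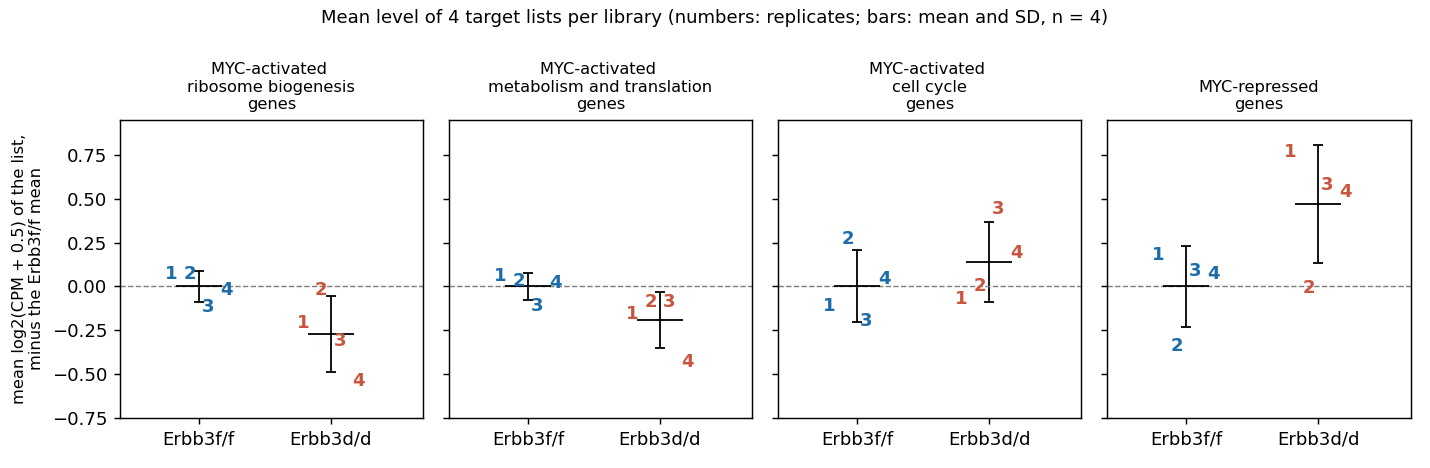
Mean log2(CPM + 0.5) of 4 target lists in each library, relative to the Erbb3f/f mean (y axis; numbers mark replicates, bars the mean and SD, n = 4). For ribosome biogenesis genes Erbb3d/d replicate 4 is lowest at -0.54, and Erbb3d/d replicate 2, at -0.02, falls inside the f/f range; for MYC-repressed genes Erbb3d/d replicates 1, 3 and 4 lie at 0.54 to 0.77.

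Several genes of the repressed list, Cdkn1a, Gadd45a and Klf6 among them, also respond to stress and to handling of cells. The 15 immediate early genes, such as Fos, Jun and Egr1, were all higher in the fit. An unadjusted p under 0.05 was reached by 2 of them, where 6.64% of all genes were higher with such a p. The 15 genes summed to 4779 to 9234 CPM in Erbb3f/f and 7297 to 13793 CPM in Erbb3d/d, with Erbb3d/d replicate 1 highest. The part of handling in these values was not tested.

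Transcripts for the co-factors of the network showed little difference. Of 15 genes for co-activators or other partners of MYC, Zbtb17 among the latter, 11 were lower. None had an unadjusted p under 0.05, and log2 fold changes ran from -0.27 to 0.09. Kat2a, the acetyltransferase GCN5, had 72.0 ± 7.15 and 59.7 ± 10.6 CPM, Ep400 had 204 ± 10.4 and 186 ± 19.8 CPM, and Ep300 had 180.2 ± 21.2 and 191 ± 21.6 CPM (Erbb3f/f and Erbb3d/d, SD, n = 4 each). Of 15 SIN3 and NCOR co-repressor genes 9 were higher and 6 lower, none with such a p, within -0.22 to 0.21. Ing2, a SIN3 subunit that reads histone methylation, had 23.6 ± 5.58 and 27.3 ± 2.81 CPM, Rbbp4 133 ± 9.49 and 147 ± 12.4 CPM, and the deacetylase Hdac2 57.6 ± 6.65 and 49.5 ± 6.15 CPM.

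Among 17 regulators of MYC protein turnover 11 were higher and 6 lower, and 1 had an unadjusted p under 0.05. The gene was Usp36, the nucleolar deubiquitinase that stabilizes MYC, with 127 ± 9.51 and 106 ± 15.7 CPM (f/f and d/d label, SD over 4 libraries each; log2 fold change -0.26, SE 0.11; edgeR, adjusted p = 0.426). The count moved with the setting, to 0 with RLE scaling, 6 with the replicate block and 5 without Erbb3d/d replicate 2. It ran from 0 to 5 over the fits that left out 1 library. The share of all genes with such a p moved too. With RLE scaling 6.92% were higher and 4.61% lower, with the replicate block 8.10% and 6.71%, and without Erbb3d/d replicate 2 9.97% and 8.91%. Nothing is therefore read from the change in the count. Pim1, a kinase that cooperates with MYC, had 141, 99.0, 186 and 156 CPM in Erbb3f/f and 225, 115, 294 and 272 CPM in Erbb3d/d replicates 1 to 4 (log2 fold change 0.64, SE 0.29; edgeR, adjusted p = 0.436). Its relative Pim3 had 98.1 ± 12.5 and 117 ± 15.4 CPM. Fbxw7, the ubiquitin ligase subunit that marks MYC and MYCN for destruction, had a log2 fold change of -0.11 (SE 0.13). Gsk3b, a kinase that acts upstream of this step, had 0.01 (SE 0.08).

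Genes whose pattern over the 8 libraries was most like that of Mycn or Myc were found from the root mean square difference of log2(CPM + 0.5) profiles, each centred on its own mean, among 12460 other genes with at least 5 CPM on average. For Mycn the closest included Wnt7a (0.27), Gjb2 (0.38), Gabrp (0.45) and Fzd10 (0.50), where the median gene stood at 1.38. Wnt7a, a Wnt ligand made by the uterine luminal epithelium, had 20.5, 20.3, 34.1 and 70.9 CPM in Erbb3f/f and 103, 60.7, 275 and 228 CPM in Erbb3d/d replicates 1 to 4. Gjb2, the gap junction protein connexin 26, had 23.3, 21.2, 31.2 and 91.5 CPM and then 81.8, 60.7, 343 and 286 CPM. For Myc the closest were Abat (0.15) and Pus7, Sfxn2, Sorcs2 and Mmp16 (0.16 each), against a median of 0.57. A gene level over all 8 libraries would stand at 1.36 from Mycn and at 0.55 from Myc. Both medians are therefore about what a gene without any pattern gives. Abat, which breaks down the transmitter GABA, had 171, 176, 119 and 149.9 CPM in Erbb3f/f and 105, 131, 78.1 and 41.8 CPM in Erbb3d/d. All 8 points of a profile come from the 2 labels, so a shared difference between labels is part of each likeness, and part of how these genes were found.

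Because Wnt7a is an epithelial gene, epithelial markers are given beside Mycn. The 18 markers summed to 1812, 1665, 1254 and 2074 CPM in Erbb3f/f replicates 1 to 4, against 1969.6, 1975, 3158 and 3235 CPM under the d/d label. In the fit 16 of the 18 were higher, 12 with an unadjusted p under 0.05, and none was at 0. Of all genes tested, 6.64% were higher with such a p. The libraries with the most Mycn, Erbb3d/d replicates 3 and 4, had the most epithelial transcripts. Smooth muscle markers were also higher in 10 of 11 genes, all 10 with an unadjusted p under 0.05, with sums of 1825 to 3030.3 CPM in Erbb3f/f and 2929 to 6112 CPM in Erbb3d/d, the highest in Erbb3d/d replicate 1. Of the 11 endothelial markers 10 were higher, none with an unadjusted p under 0.05. Immune markers summed to 1274 to 3089 CPM and 1851 to 2288 CPM. Pdgfrb is counted both as a MYC-repressed gene and as a stromal marker. The part of these other cells in the Mycn, Myc and target gene values was not tested.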

How the data were processed

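Polyadenylated RNA of mouse uterine stromal cells was sequenced in 8 non-directional libraries, per the labels' protocols. The authors deposited raw read counts per gene symbol for each library; HISAT2, SAMtools, HTSeq, StringTie and the build mm10 (GRCm38) are named without roles or versions, per the submitters' processing notes. The gene annotation and counting options are not given in the sources used here. Each table ends in 5 lines naming no gene, which were left out; 27.0% to 29.1% of entries fell in genes.

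Counts were scaled by TMM, filtered with filterByExpr and tested with edgeR 4.0.16 (quasi-likelihood, robust) in R 4.3.3, with Benjamini-Hochberg adjustment over all genes tested and a threshold of 0.05. DESeq2 1.42.0, RLE scaling, no filter, a replicate block and leaving out each library were alternatives. Standard errors are the log2 fold change divided by the square root of its F statistic. CPM uses the scaled library size. The code was tested on simulated data. Samples were grouped by their titles.

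The members and lists were chosen with earlier results of these data known, and the lists were written from general knowledge. Named genes are all members and, per list, the 2 with the smallest p in the majority direction and 1 in the other; others were chosen after their values were seen. For Myc and Mycn the 5 genes of most similar profile were also taken, of which 1 is not reported here. Mycl, Cip2a and Adgre1 were matched by RefSeq synonyms. Gene positions and exon lengths came from GENCODE vM21 (GRCm38), promoters from RefSeq (GRCm38.p6).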

Additional observations from a re-analysis of the deposited data

How the results depend on the processing

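The number of genes called over the whole table, 0 in edgeR, was 261 with DESeq2, 52 with the replicate number as a block, and 0 to 259 when 1 library was left out, the 259 being without Erbb3d/d replicate 2. RLE scaling or no filter gave 0. Same-numbered libraries of the 2 genotypes correlated at 0.221, 0.159, 0.096 and 0.145 in their deviations from the genotype means, all positive. Most pairs of unlike number were negative, down to -0.296. Deviations from a genotype mean sum to 0, so positive values for like numbers require negative ones elsewhere. Nothing is read from those negative signs. The highest value of all, 0.302, was between Erbb3f/f replicate 4 and Erbb3d/d replicate 3, so not every library correlated best with its own number. These values cannot tell whether the numbers pair animals. The fit without a block was kept as the main one because the labels give no pairing. With the replicate block the log2 fold change was 2.46 for Mycn and -0.82 for Myc. Leaving out 1 library gave 2.30 to 2.91 for Mycn, -0.96 to -0.61 for Myc and 0.24 to 0.52 for Mycl. A pseudocount of 0.5 changed the Mycn to Myc difference from 3.24 to 3.15. By longest transcript in place of exon union, 4 of the 10 members changed rank in level over the 8 libraries. The median of Mga, Mlxip and Mlxipl ran from -0.20 to 0.01 and that of the co-repressors from -0.02 to 0.06 over the fits that each left out 1 library; the cause was not tested. Counts of list genes under each alternative were added after the data were seen. Among the members Mycn had the fewest reads, 46 in its lowest library, and Cdkn2b and Mlxipl had fewer still, 7 and 16.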
